A study of Mus musculus with 6 samples.

Results

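The granzyme-chymase cluster on mouse chromosome 14 holds genes of serine proteases that immune cells store in cytoplasmic granules. The 10 genes described here are Mcpt8, the microRNA gene Mir6949 that lies inside it, Mcpt1, Mcpt4, Ctsg, Gzmb, Gzmc, Gzmd, Gzme and Gzmf. They were found by gene name among the 49548 genes of the deposited table, 22775 of them with any read. The set was chosen by the measured difference between treated and untreated cells, mainly that of Mcpt8, so the difference is described for the members and not tested.

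All cells were synovial fibroblasts (SFs), the connective tissue cells of the joint lining, from ankle joints of 8-week-old mice on a CBA C57BL/6J background that carried the human TNF transgene (hTNFtg) and develop arthritis. The joints were digested, the cells were cultured, and cells carrying the leukocyte antigen CD45 were removed with beads at the first passage. There were 3 libraries of SFs labelled as given no treatment and 3 of SFs given 500 μM amisulpride, an antipsychotic drug that blocks dopamine receptors, for 48 h, and RNA was read by 3′ end sequencing. The study's methods name vehicle as the control where the labels name no treatment, and the controls are called untreated here. No wild-type SFs were analysed here, so both groups carry the transgene.

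Granule serine proteases are made as inactive precursors, are trimmed by cathepsin C, and are held in granules on the proteoglycan serglycin until the cell releases them. Granzymes are the proteases of cytotoxic lymphocytes and natural killer cells, chymases are those of mast cells, and cathepsin G is found in neutrophils and monocytes. Mcpt8 codes for mouse mast cell protease 8, which despite its name is best known as a product of basophils.

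The table gives the cluster in mm10 coordinates. It spanned 321 kb, from 55941453 to 56262260 of chromosome 14, with 15 protein-coding genes, 12 of them on the minus strand. Mcpt8 (ENSMUSG00000022157) lay on the minus strand from 56082166 to 56085216, between the chymase side of the cluster, which ends with Mcpt4 at -22.4 kb, and Ctsg at 17.7 kb, both by the lower ends of the genes. The granzymes followed in the order Gzme, Gzmd, Gzmg, Gzmn, Gzmf, Gzmc and Gzmb. Mir6949 (ENSMUSG00000098961), from 56082401 to 56082468 on the same strand, lay wholly inside Mcpt8.

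The sequence of Mir6949 is shown because its value cannot be read apart from that of Mcpt8. In the GENCODE annotation of the same build, Mcpt8 has 5 exons, and the 68 bases of the hairpin are the last 68 bases of intron 4, which spans 479 bases. The hairpin is followed with 0 bases between by exon 5, the last exon, which is 235 bases long. In the lines below, taken from RefSeq (GRCm38.p6), capitals mark the seed, bases 2 to 8 of each mature microRNA, and the hairpin at chr14:56082401-56082468 is given without marks.
mmu-miR-6949-5p: aAAGUGGGucuagaaagagguga
mmu-miR-6949-3p: uUCCCCUUuuucuauccacag
Mir6949 hairpin: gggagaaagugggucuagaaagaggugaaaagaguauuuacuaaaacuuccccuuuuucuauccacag
The seeds of the 2 arms differ, and 0 other mature mouse microRNAs in the RefSeq table carry either of them.

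Sequence before the transcription start was read for the cluster because its genes differ so much in level. RefSeq sequence was found for 13 of the 15 protein-coding genes of the cluster, all but Mcpt2 and Cma2. The 250 bases before the start of Mcpt8, Gzme and Gzmd are printed, since these show the gene with the largest difference and a near-identical pair. Capitals mark TGTGGT, the core of a RUNX motif, or its reverse complement ACCACA. The windows are chr14:56085198-56085447, chr14:56120626-56120875 and chr14:56132594-56132843 of GRCm38.p6, all on the minus strand.
Mcpt8: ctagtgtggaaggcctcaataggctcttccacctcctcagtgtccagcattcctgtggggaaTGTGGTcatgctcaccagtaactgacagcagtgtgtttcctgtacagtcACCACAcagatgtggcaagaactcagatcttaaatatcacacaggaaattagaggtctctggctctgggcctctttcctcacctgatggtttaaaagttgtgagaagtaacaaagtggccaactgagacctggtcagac
Gzme: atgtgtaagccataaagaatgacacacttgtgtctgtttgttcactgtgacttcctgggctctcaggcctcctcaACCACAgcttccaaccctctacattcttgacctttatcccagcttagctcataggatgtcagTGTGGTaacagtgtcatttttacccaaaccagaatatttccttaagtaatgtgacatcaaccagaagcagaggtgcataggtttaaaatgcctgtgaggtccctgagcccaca
Gzmd: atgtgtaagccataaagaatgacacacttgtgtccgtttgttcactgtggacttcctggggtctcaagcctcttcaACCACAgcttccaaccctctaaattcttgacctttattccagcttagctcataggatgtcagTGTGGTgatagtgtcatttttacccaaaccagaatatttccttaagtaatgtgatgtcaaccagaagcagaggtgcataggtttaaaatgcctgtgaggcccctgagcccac
Over these 250 bases Gzme and Gzmd were 94.8% identical, and Gzme was 80.9% identical to Gzmc, 79.4% to Gzmg and 74.9% to Gzmf. Mcpt8 was 45.7% identical to Gzme and 46.9% to Gzmd.

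TGTGGT was found on either strand in 10 of the 13 cluster genes, against 14.0% of 32851 mouse promoter windows of the same length. In Mcpt8 it began 188 and 139 bases before the start, and in Gzme 175 and 113 bases before it. TATAAA was found in 4 of the 13, namely Mcpt1, Mcpt4, Ctsg and Gzmn, against 12.4% of all windows, and in none of the printed windows. TGANTCA, an AP-1 motif, was found in 1, Gzmb, against 6.75%. AGATAA, 1 form of the motif of factors in the GATA family, was found in 0 against 9.99%, and other forms were not searched. The motifs share no letters in these windows, several cluster windows are alike in sequence, and a match is a description of letters and not of binding.

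The values are normalised counts, that is, reads per gene scaled by the authors between libraries and rounded. Library totals lay between 3832980 and 4504242 normalised counts. The depth behind them was estimated from the spacing of low values and ranged from about 2.52 M reads in amisulpride replicate 3 to about 4.71 M in untreated replicate 3, and the estimate for untreated replicate 1 is uncertain. The floor, the 3 reads that a value of 0 can still hide, was worth 2.50 to 5.37 normalised counts and covers counting error only. The fibroblast markers Col1a1 (collagen I, 10814 to 35599 normalised counts) and Pdpn (podoplanin, 1641 to 5891) were high in all 6 libraries. Differences are given as log2(normalised count + 1), treated minus untreated, which understates them for low genes.

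Mcpt8 was the most abundant gene of the cluster in untreated SFs and was about 5 times lower after amisulpride. It stood at 486, 425 and 327 normalised counts in untreated replicates 1, 2 and 3, and at 96, 68 and 72 in amisulpride replicates 1, 2 and 3. The lowest untreated library was more than 3 times the highest treated one, so the groups did not overlap. The means were 413 ± 80.2 untreated and 78.7 ± 15.1 treated (SD, n = 3 each), a 5.25-fold difference, or -2.37 on the log2 scale. By replicate number the log2 difference of Mcpt8 was -2.33, -2.63 and -2.17, and leaving out any 1 library moved it between -2.53 and -2.25. From the lowest difference upwards, Mcpt8 stood at place 33 of the 12614 genes that reached a normalised count of at least 10 in at least 3 libraries. In bulk RNA, fewer cells that express a gene and less RNA per cell cannot be told apart.

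Mir6949 carried nearly the same values as its host gene. It stood at 493, 426 and 329 normalised counts in the untreated libraries and at 96, 68 and 75 in the treated ones. In each library it exceeded Mcpt8 by 0 to 7 normalised counts, and the ratio of Mir6949 to Mcpt8 was at most 1.04. Its fold difference, 5.22, and its log2 difference, -2.37, are therefore those of Mcpt8 counted again. The authors' values per gene length show that the length assigned to Mir6949 was 1254 bases and not 68. All 420 microRNA genes with a value had that length, as did all 304 snoRNA and all 186 snRNA genes, against 183 of 15593 protein-coding genes. A window of that size around the hairpin reaches past the 3′ end of Mcpt8, and Mcpt8 and Mir6949 were the 2 annotated genes within 1254 bases of Mcpt8. A 3′ end kit reads the ends of polyadenylated transcripts, so the Mir6949 value is no measurement of the mature microRNA.

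A match between microRNA gene and host was seen at other loci too. Of 19 microRNA genes with a mean of at least 10 that lay within 600 bases of the 3′ end of a protein-coding host, Mir6949 among them, 8 came within 5% of the host's value, and the median ratio to the host was 0.863. Of 49 that lay further from the 3′ end, 9 came within 5% and the median ratio was 0.432. Mcpt8 itself shared no stretch of 30 bases with any other protein-coding gene of the cluster in the last 200 bases of the annotated transcripts, and 30.8% to 56.7% of its transcript was identical to theirs.

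**Figure D1:**
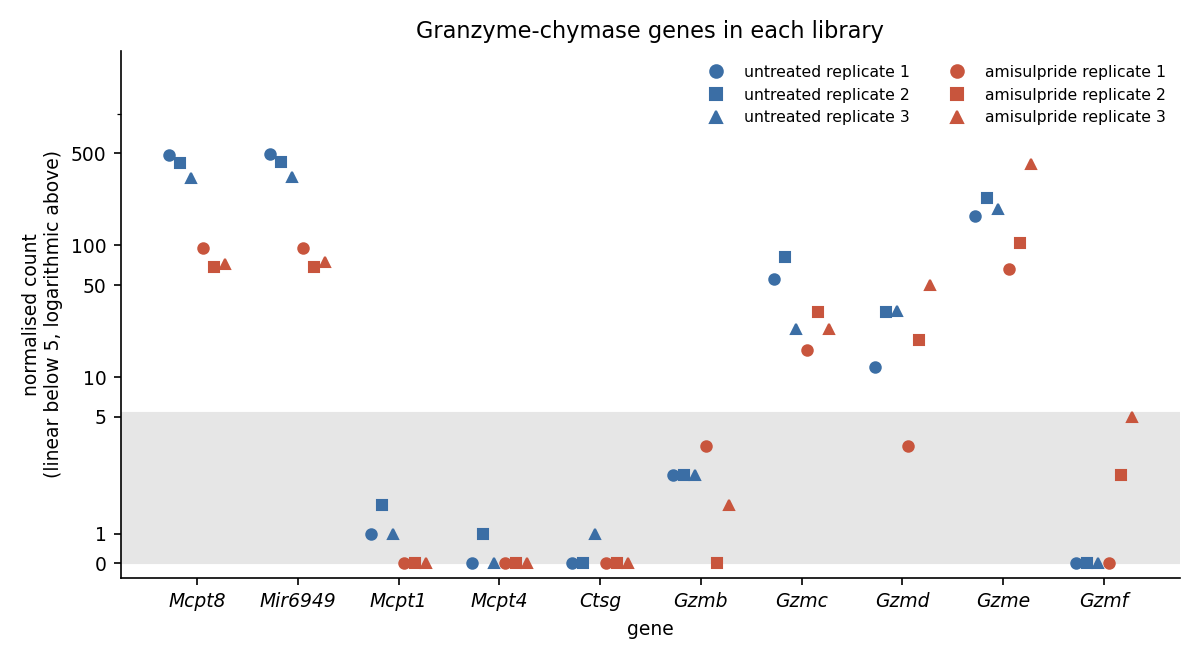
Normalised count of each of the 10 genes in each library, on an axis that is linear below 5 and logarithmic above. Blue marks stand for untreated and red for amisulpride libraries, marker shape stands for the replicate number, and the grey band reaches up to the highest floor of any library (5.37). Mcpt8 and Mir6949 form near-identical patterns with 68 to 96 in the treated libraries and 327 to 493 in the untreated ones. Mcpt1, Mcpt4, Ctsg, Gzmb and Gzmf lie within the band throughout.

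Gzme, a granzyme of cytotoxic lymphocytes, was the other abundant gene, and its group means were nearly equal. It stood at 167, 227 and 188 normalised counts in the untreated libraries and at 66, 104 and 415 in the treated ones. Treated replicates 1 and 2 lay below all untreated libraries and treated replicate 3 lay above all of them. The means were 194 ± 30.4 and 195 ± 191 (SD, n = 3 each), and the log2 difference was -0.44. By replicate number the log2 difference of Gzme was -1.33, -1.12 and 1.14, and without amisulpride replicate 3 it was -1.21. Amisulpride replicate 3 is also the shallowest library, with 1.79 normalised counts per read, and the part of depth in this value was not tested.

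Gzmd, the next gene along the chromosome, followed Gzme at a lower level. Its normalised counts were 12, 31 and 32 in the untreated libraries and 4, 19 and 50 in the treated ones. Treated replicate 3 was again the highest of all 6, and the groups overlapped. The means of Gzmd were 25.0 ± 11.3 and 24.3 ± 23.5 (SD, n = 3 each), with a log2 difference of -0.48. That difference of Gzmd was -1.26 without amisulpride replicate 3 and 0.42 without amisulpride replicate 1, so 1 library decided its direction. Over the 6 libraries the log2 values of Gzmd and Gzme had a Pearson correlation of 0.886, and their deviations from the group means one of 0.880, as a description of 6 points that share depth and scaling.

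The counts of the Gzmd to Gzmn genes are uncertain as to which copy they came from. Gzme and Gzmd transcripts were 90.0% identical, and of the 30-base stretches in the last 200 bases of Gzme 21.1% also occurred anywhere in the annotated protein-coding transcripts of Gzmd. The same shares with Gzme were 18.7% for Gzmf, 18.1% for Gzmg and 19.3% for Gzmn, and 0 for Gzmc and Gzmb. How reads with several best positions were counted is not given in the sources used here. Gzmn, a granzyme gene between Gzmg and Gzmf, stood at 6, 14 and 1 normalised counts untreated and 1, 3 and 11 treated, and its correlation with Gzme was 0.716. Gzmg stood at 0 to 2.

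Gzmc, a granzyme at the far side of the cluster, was expressed at a level between those of Gzme and Gzmd in untreated SFs. It stood at 56, 82 and 23 normalised counts untreated and at 16, 31 and 23 treated. Untreated replicate 3 matched amisulpride replicate 3, so the groups overlapped, while the other 2 untreated libraries exceeded all treated ones. The means of Gzmc were 53.7 ± 29.6 and 23.3 ± 7.51 (SD, n = 3 each), and its log2 difference was -1.04. By replicate number the difference of Gzmc was -1.75, -1.38 and 0.00, and leaving out 1 library at a time gave -1.55 to -0.65.

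**Figure D2:**
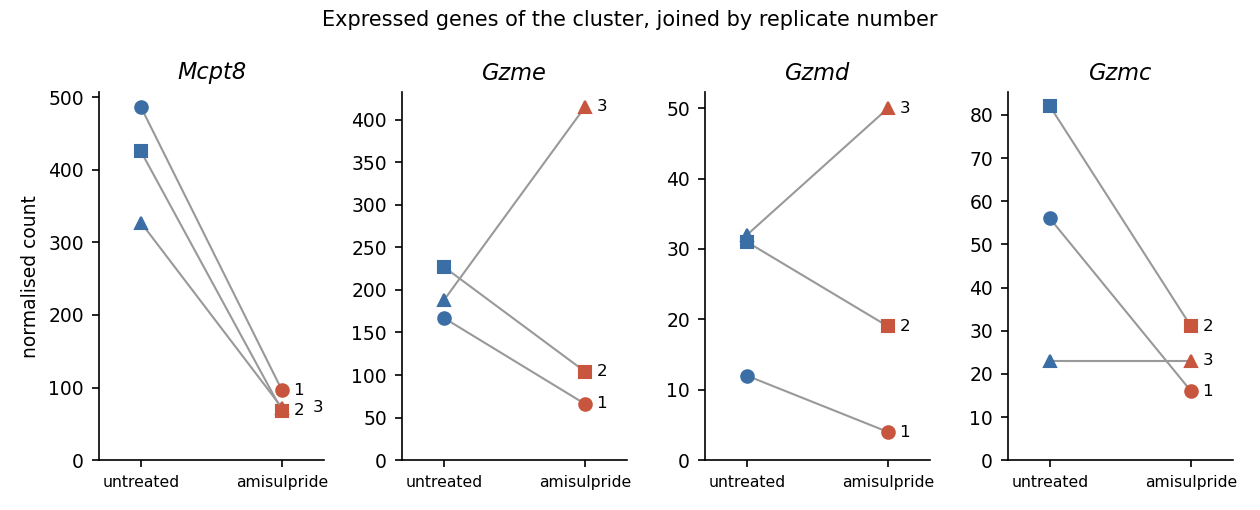
Normalised count of Mcpt8, Gzme, Gzmd and Gzmc, each panel with its own linear axis from 0, with grey lines joining the untreated (blue) and amisulpride (red) library of the same replicate number. All 3 lines fall for Mcpt8, while for Gzme and Gzmd the line of replicate 3 rises, to 415 and 50.

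Gzmb, the granzyme best known for triggering apoptosis in target cells, was near the floor. It stood at 3 normalised counts in each untreated library and at 4, 0 and 2 in the treated ones, above the library's floor in 3 of the 6. Gzmf had 0 in every untreated library and 0, 3 and 5 after treatment, never above the floor. No difference was detectable for either gene at this depth.

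Mcpt1, Mcpt4 and Ctsg were at or under the floor in every library. Mcpt1, a protease of mucosal mast cells, stood at 1, 2 and 1 normalised counts untreated and 0 in all treated libraries. Mcpt4, a chymase of connective tissue mast cells, had a value of 1 in untreated replicate 2 and 0 elsewhere. Ctsg, which codes for cathepsin G, had a value of 1 in untreated replicate 3 and 0 elsewhere. All these values lie within the floor, so for these 3 genes neither expression nor a difference was detectable at this depth. The chymase genes Cma1, Cma2, Mcpt2 and Mcpt9 ranged from 0 to 3 normalised counts, and Cma1 and Mcpt2, at 3 in amisulpride replicate 1, were there just above its floor of 2.69. The pseudogene Mcpt-ps1 was not analysed here.

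For 3 of the 10 members, Mcpt8, Mir6949 and Mcpt1, every treated value lay below every untreated one. Over all 22775 genes with a value that share was 6.06%, while Mir6949 repeats Mcpt8 and Mcpt1 lies under the floor. The count rose to 4 without untreated replicate 3, which adds Gzmc, without amisulpride replicate 1, which adds Gzmb, and without amisulpride replicate 3, which adds Gzme. Of the 10 members, 5 reached a normalised count of at least 10 in at least 3 libraries, and the other 5 did not.

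Per kb of gene model, Mcpt8 led in untreated SFs with a mean of 309 normalised counts per kb and a range of 245 to 364. Gzme followed with 143 (123 to 167), Gzmc with 39.3 (16.8 to 60.0) and Gzmd with 18.2 (8.74 to 23.3). Mcpt8, Gzme and Gzmc did not overlap with one another, while Gzmc and Gzmd did. After amisulpride Gzme came first with 143 normalised counts per kb (48.5 to 305), and its range overlapped with that of Mcpt8 at 58.9 (50.9 to 71.9). Gzmd at 17.7 (2.91 to 36.4) and Gzmc at 17.1 (11.7 to 22.7) overlapped too. With a 3′ end kit reads do not rise with length, and the model lengths of these 4 genes, 1336 to 1373 bases, are close enough that the order is the same per gene.

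Mcpt8 made up 66.3%, 54.0% and 56.6% of the summed normalised counts of the cluster's protein-coding genes in the untreated libraries. In the treated libraries its share was 49.7%, 29.6% and 12.4%. The cluster's sum was 733, 787 and 578 untreated and 193, 230 and 580 treated, so amisulpride replicate 3 had a sum within the untreated range, 71.6% of which was Gzme. Among the protein-coding genes with a value in the same library, ranked per length, Mcpt8 was at percentile 95.4 to 96.9 in the untreated libraries and at 80.7 to 85.9 in the treated ones. Gzme was at 90.8 to 93.2 in the untreated libraries and at 81.0, 86.4 and 95.6 in the treated ones. Because reads of a 3′ end kit do not rise with length, this ranking favours genes with short models. A ranking by count alone was not made.

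**Figure D3:**
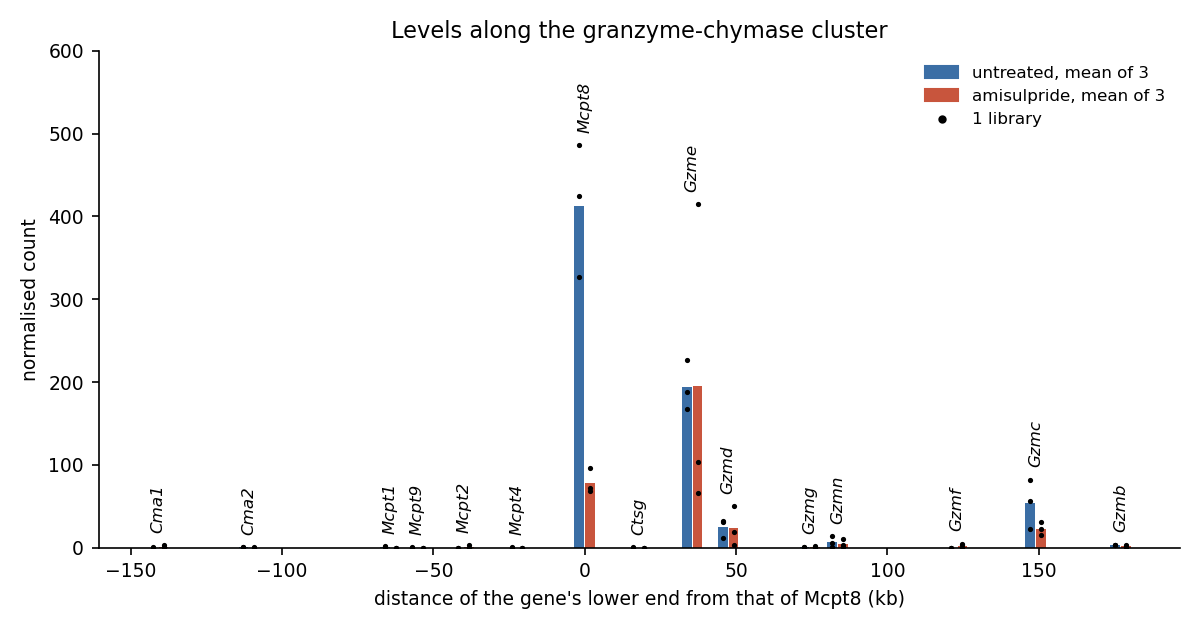
Normalised count of the 15 protein-coding genes of the cluster against their distance from Mcpt8 in kb. Bars give the mean of 3 untreated (blue) or 3 amisulpride (red) libraries and black points single libraries. Levels above 50 in any library are seen for Mcpt8, Gzme and Gzmc, with silent genes such as Ctsg, Gzmg and Gzmf between them.

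Around the cluster 0 tested genes passed a threshold in the main fit of the full set of libraries. Of 75 other genes of the table within 1 Mb of Mcpt8, 32 reached the level needed for testing, 17 of them lower and 15 higher after amisulpride, with a median log2 difference of -0.02 against 0.00 over all 12614 genes. In a fit with limma across all genes, 0 of the 32 passed either an adjusted p of 0.05 or the study's thresholds, a log2 difference of at least 1 either way with an unadjusted p under 0.05, and 1 had an unadjusted p under 0.05. Over all 12614 genes 0.285% passed the former, and 3.01% passed the latter as lower and 2.69% as higher. When 1 library was left out, 1 neighbour passed the study's thresholds each time, namely Atp12a without untreated replicate 3, Mphosph8 without amisulpride replicate 2 and Pspc1 in the other 4 cases.

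Many, but not all, markers of the cells that usually express these proteases were absent. Of 15 basophil markers 9 were at 0 in all 6 libraries. Among them were Fcer1a and Ms4a2, which code for some of the chains of the high-affinity IgE receptor, and the basophil protease gene Prss34. The basophil list summed to 151 to 173 normalised counts untreated and 166 to 186 treated, most of it from Il3ra (78 to 122) and Gata2 (29 to 98). Of its 3 tested genes 0 passed either threshold, and the median difference was 0.12. Detected at lower levels were Il18rap at 25, 17 and 18 untreated and 18, 7 and 9 treated, Csf2rb, a cytokine receptor chain shared by many myeloid cells, at 18, 6 and 7 untreated and 3, 0 and 0 treated, and Hdc at up to 9. Every treated value of Csf2rb lay below every untreated one, as for Mcpt8, and its level was too low for the test. The part of basophils in the Mcpt8 difference was not tested.

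Of 15 mast cell markers 7 were at 0 throughout, among them Cpa3 and Tpsb2, the genes of granule carboxypeptidase A3 and a tryptase. Kit, the stem cell factor receptor, had 1 normalised count in untreated replicate 1 and 0 elsewhere. The mast cell list summed to 71 to 81 untreated and 58 to 102 treated. Its largest part was Gata2, also on the basophil list, at 38, 49 and 43 untreated and 36, 29 and 98 treated. Gata2 was tested and passed neither threshold (log2 difference 0.12 ± 0.43 SE). Hpgds, at 8, 5 and 3 untreated and 11, 4 and 0 treated, and Hdc, at up to 9, were detected at lower levels. Of the 2 tested genes of the list, Mitf, a transcription factor, passed the study's thresholds as lower, at 24, 17 and 21 normalised counts untreated and 9, 13 and 4 treated (log2 difference -1.27 ± 0.53 SE, limma adjusted p = 0.404). That call of Mitf was lost without any of untreated replicates 1, 2 and 3 (-1.16, -1.40 and -1.26) or amisulpride replicate 3 (-0.86).

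Of 20 cytotoxic lymphocyte markers 16 were at 0 throughout, among them Gzma, the pore-forming perforin gene Prf1 and the T cell receptor chain Cd3e. Cd3d, the gene of another such chain, was detected, at 30, 26 and 18 normalised counts untreated and 16, 33 and 11 treated. The log2 difference of Cd3d was -0.40 ± 0.47 SE, and it passed neither threshold. The list summed to 106 to 253 untreated and 43 to 149 treated, and Ccl5, a chemokine also made by fibroblasts, held most of it. Of its 2 tested genes Ccl5 passed the study's thresholds as lower, at 75, 226 and 104 normalised counts untreated and 44, 116 and 32 treated (log2 difference -1.13 ± 0.50 SE, limma adjusted p = 0.445). That call of Ccl5 was lost without untreated replicate 2 or 3 (-0.68 and -1.24) or amisulpride replicate 1 or 3 (-0.97 and -0.75).

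Of 15 neutrophil granule genes 7 were at 0 throughout, the myeloperoxidase gene Mpo among them. Elane, the neutrophil elastase gene, nevertheless stood at 1057, 1543 and 1173 normalised counts untreated and 875, 1610 and 1081 treated, with a log2 difference of -0.11 ± 0.29 SE. The list summed to 1158 to 1655 untreated and 965 to 1690 treated, nearly all of it Elane. The groups of Elane overlapped, unlike those of Mcpt8. Other genes of the list were detected at lower levels, among them Cxcr2, a chemokine receptor, at 37 to 86 normalised counts, Prtn3 at up to 11 and S100a8 at up to 8. Of the 3 tested genes of the list Camp, the cathelicidin gene, passed the study's thresholds as lower, at 46, 51 and 31 untreated and 19, 27 and 5 treated (log2 difference -1.51 ± 0.55 SE, limma adjusted p = 0.315). That call of Camp was lost without untreated replicate 1 or 2 (-1.45 and -1.37) or amisulpride replicate 3 (-0.85).

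Leukocyte marker genes were detected, with sums that overlapped between the groups. The 15 pan-leukocyte markers summed to 6029, 2988 and 3669 normalised counts untreated and 5374, 2844 and 3194 treated. By replicate number the sum was lower after amisulpride in all 3 pairs, as was Mcpt8, but by a far smaller part. The single markers did not all follow the sum. Lyz2, its largest part, stood at 3046, 1733 and 2188 untreated and 3287, 1879 and 1394 treated, higher in replicates 1 and 2. Laptm5, the next largest, stood at 1314, 407 and 500 untreated and 865, 324 and 574 treated, higher in replicate 3. Lcp1 stood at 489, 128 and 171 untreated and 250, 72 and 132 treated (log2 difference -0.72 ± 0.52 SE). Coro1a stood at 101, 21 and 23 untreated and 50, 16 and 7 treated (-0.99 ± 0.72 SE). Fcer1g stood at 125, 111 and 144 untreated and 113, 78 and 86 treated (-0.46 ± 0.27 SE). Lcp1, Coro1a and Fcer1g were lower in all 3 pairs. Cd68, at 210, 119 and 144 untreated and 219, 122 and 256 treated, was higher in all 3. Of 13 tested genes of the list 10 were lower and 3 higher, with a median difference of -0.34. Ptprc, which codes for CD45, the antigen used for depletion, stood at 38, 12 and 18 untreated and 23, 5 and 5 treated (log2 difference -1.16 ± 0.66 SE, limma adjusted p = 0.562). Ptprc did not pass the study's thresholds without the replicate block (limma unadjusted p = 0.104) and passed them as lower with it (limma unadjusted p = 0.0360, adjusted p = 0.297). Csf1r, the receptor for macrophage colony-stimulating factor, passed the study's thresholds as lower (log2 difference -1.01 ± 0.46 SE) and Cd53, a leukocyte tetraspanin, as higher, at 19, 18 and 12 untreated and 44, 41 and 41 treated (1.34 ± 0.36 SE). The call of Csf1r was lost whenever a library other than amisulpride replicate 3 was left out, and its difference was then -1.15 to -0.53. The part of leukocytes that escaped depletion in the Mcpt8 difference was not tested. Of 15 fibroblast markers 14 were tested, 0 passed either threshold and 1 had an unadjusted p under 0.05, with a median difference of 0.20 by limma. With the block Lum, the lumican gene, passed the study's thresholds as lower (log2 difference -1.07, limma adjusted p = 0.0602).

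**Figure D4:**
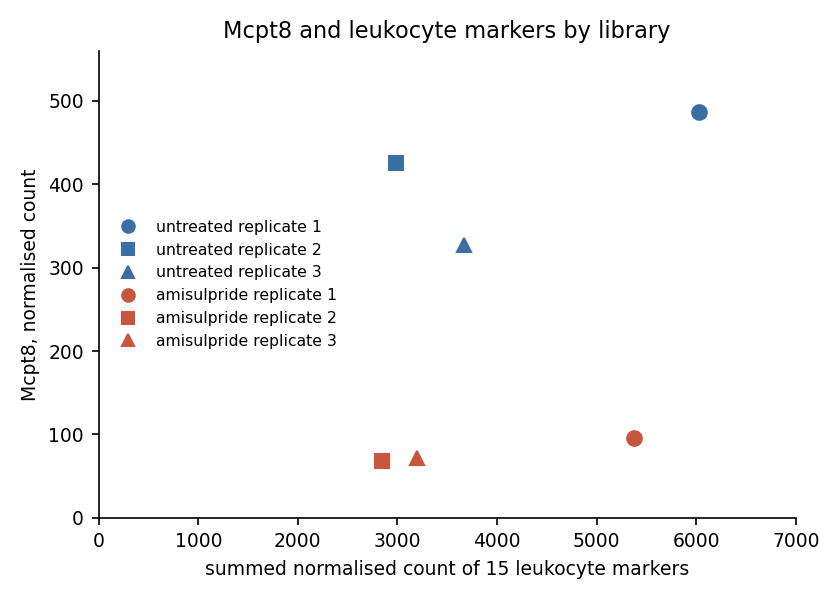
Mcpt8 against the summed normalised count of 15 leukocyte markers, 1 mark per library, untreated in blue and amisulpride in red, with marker shape for the replicate number and both axes linear from 0. Within replicate numbers the marker sum falls from 6029 to 5374, from 2988 to 2844 and from 3669 to 3194, and Mcpt8 from 486 to 96, from 425 to 68 and from 327 to 72.

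Genes for the storage, trimming and release of granule proteases were mostly expressed. Of 18 such genes 15 were tested, 13 of them lower and 2 higher, with a median difference of -0.23 against 0.00 over all genes. By the study's thresholds 3 were lower and 0 higher, against 3.01% and 2.69% of all genes tested. None passed an adjusted p of 0.05 by limma, and 6 of the 15 had an unadjusted p under 0.05, against 10.9% of all genes tested. Among these 6 genes Ap3b1 was higher, at 140, 222 and 188 normalised counts untreated and 246, 493 and 383 treated. Its log2 difference was 0.99 ± 0.31 SE (limma unadjusted p = 0.00753), just under the study's threshold, and the others were lower. Srgn, which codes for serglycin, stood at 38, 61 and 11 normalised counts untreated and 7, 20 and 7 treated (log2 difference -1.48 ± 0.64 SE, limma adjusted p = 0.431). Ctsc, which codes for cathepsin C, stood at 329, 97 and 113 untreated and 87, 46 and 84 treated (-1.13 ± 0.45 SE, limma adjusted p = 0.367). Ndst2, an enzyme that sulfates the heparin of mast cell granules, stood at 102, 83 and 108 untreated and 67, 47 and 32 treated (-1.04 ± 0.33 SE, limma adjusted p = 0.241).

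Without the replicate block all 3 calls depended on single libraries. With the block and all 6 libraries the limma adjusted p was 0.132 for Srgn, 0.0720 for Ctsc and 0.107 for Ndst2. Libraries were left out only without the block. Srgn was at 11 in untreated replicate 3, within the treated range, and its call was lost without untreated replicate 1 or 2 (-1.31 and -0.97) or amisulpride replicate 1 or 3 (-1.25 each). The groups of Ctsc did not overlap, but untreated replicate 1 stood far above the other untreated libraries, and the call was lost without it (-0.58) and without amisulpride replicate 2 (-0.84). Ndst2 lost its call without untreated replicate 3 (-0.97) or amisulpride replicate 3 (-0.78). Ctsc and the leukocyte markers were both highest in untreated replicate 1, and the part of leukocytes in Ctsc was not tested.

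Genes of protease inhibitors were tested next. Of 20 protease inhibitor genes 10 were tested, 4 lower and 6 higher, with a median difference of 0.04, and 0 passed either threshold or an unadjusted p of 0.05 by limma. With the block Serpina3n passed the study's thresholds as higher (log2 difference 1.01, limma adjusted p = 0.139). Of 22 other serine protease genes 11 were tested, 5 lower and 6 higher, with a median difference of 0.18. Prss35, a protease-like gene of unknown substrate, passed the study's thresholds as higher, at 24, 36 and 28 normalised counts untreated and 75, 112 and 73 treated (log2 difference 1.52 ± 0.32 SE, limma adjusted p = 0.0764, and 0.0167 with the replicate number as a block). Htra1, a secreted protease of the extracellular matrix, passed them as lower, at 111, 161 and 391 untreated and 61, 71 and 122 treated (-1.23 ± 0.44 SE, limma adjusted p = 0.304, and 0.0284 with the block). Without the block the call of Htra1 was lost when untreated replicate 3 (-0.72) or amisulpride replicate 1 (-1.03) was left out.

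The genes whose log2 values were most like those of Mcpt8 over the 6 libraries were sought among 7244 protein-coding genes with a mean of at least 50. These likenesses describe 6 points that share depth and scaling. Kcnd1, a potassium channel, came first with a Pearson correlation of 0.995, followed by Cyp51, the sterol 14-demethylase of cholesterol synthesis, with 0.991. Cyp51 stood at 859, 669 and 587 normalised counts untreated and 255, 245 and 217 treated. Mrps12 (0.988), Pdlim4 (0.987), Plaur (0.986), Gga3 (0.986), Akr1b8 (0.984) and 4930402H24Rik (0.982) completed the 8 genes, and the log2 differences of all 8 lay between -1.54 and -0.50.

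Likeness within the groups was measured on deviations from the group means. It was highest for Tctex1d2 (0.990), Ikbkg (0.988), Slc11a2 (0.983), Cebpb (0.983), Cisd1 (0.981), Dcbld2 (0.980), Acsl1 (0.976) and Hjurp (0.975). Their log2 differences ranged from -0.65 for Cebpb, a transcription factor of inflammatory genes, to 0.21 for Acsl1. All were smaller in size than the -2.37 of Mcpt8. Genes already named for likeness over all values were left out of this list. Among those, Plaur, the urokinase receptor, came close on both measures, with 0.986 over all values and 0.973 within groups. It stood at 120, 100 and 82 normalised counts untreated and 52, 37 and 43 treated, a log2 difference of -1.17. The other expressed proteases of the cluster were less like Mcpt8, with 0.683 for Gzmc, 0.184 for Gzme and 0.076 for Gzmd over all values, and 0.247, -0.403 and -0.754 within groups.

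**Figure D5:**
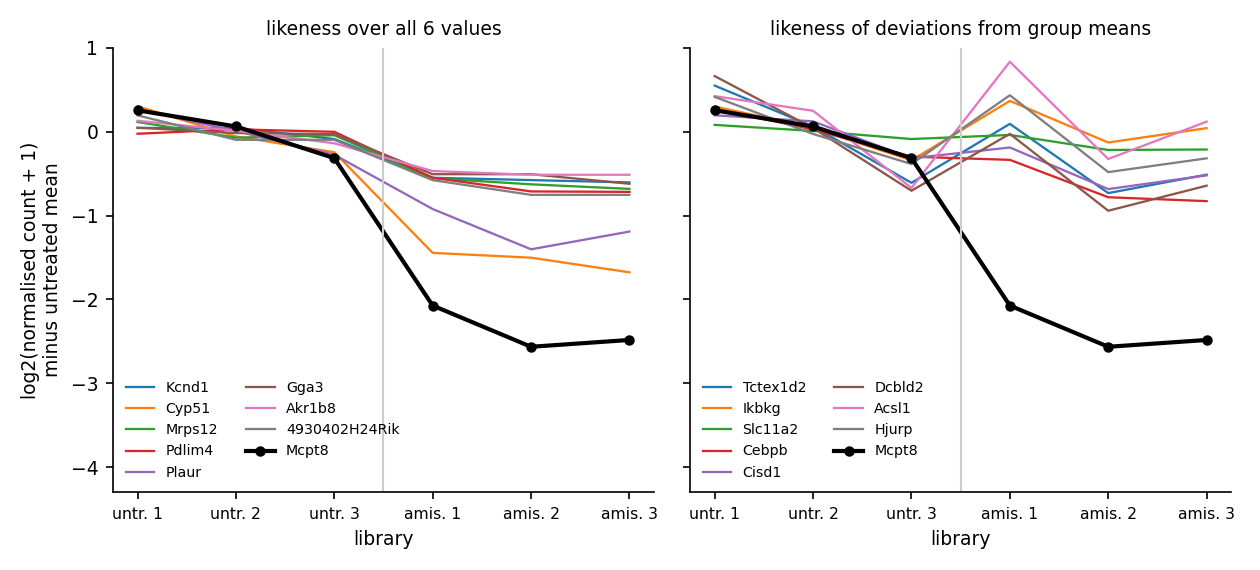
Log2(normalised count + 1) minus the untreated mean in each library, for Mcpt8 (black) and the 8 genes most like it over all 6 values (left) or in deviations from the group means (right). Lines only join the values of a gene. On the left all genes step down in the treated libraries, Mcpt8 the most, and on the right the other genes follow the order of libraries within a group while their group levels differ by 0.65 or less.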

How the data were processed

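The members and the gene lists were chosen with earlier results of these data known. Per the file headers and the study's methods, the authors mapped reads to mm10 with TopHat2 and then Bowtie2, counted them per gene with GenomicRanges and normalised them with DESeq through metaseqr. Their versions, the strand setting and the handling of reads with several positions are not given in the sources used here. What the authors deposited is a score: counts of reads after DESeq scaling of each library, given as integers. A deposited signal, the same value per base of gene model, was used for model lengths only. Columns of the authors' comparison (fold change, DESeq p-value and adjusted p-value) and 6 further columns of per-library log2 values were not used.

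The value of 1 read per library was estimated by likelihood from low values. Genes with at least 10 in at least 3 libraries were fitted with limma 3.58.1 (R 4.3.3, trend) on log2(normalised count + 1), with Benjamini-Hochberg adjustment over 12614 genes. Step and fit were tested on simulated data. The libraries are 3 biological replicates per group by the study's methods. Deviations of same-numbered libraries from the group means correlated at 0.229, 0.240 and 0.201, so the numbers were taken to pair the libraries, from the data and not from a stated batch. Correlations of all other pairs were negative, which is no separate evidence, because deviations from a group mean cancel out within the group.

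The genes named are the 10 members, the other cluster genes, the 8 most like Mcpt8 by each measure with a mean of at least 50, the list genes past either threshold and the defining markers of each cell type list. The neighbours named outside the cluster and the values of Plaur and Cyp51 were singled out after their values were seen. So were the list genes Il3ra, Gata2, Il18rap, Csf2rb, Hdc, Hpgds, Cd3d, Cxcr2, Prtn3, S100a8, Lyz2, Laptm5, Lcp1, Coro1a, Fcer1g, Cd68, Ap3b1, Lum and Serpina3n. Exons came from GENCODE M21, and RefSeq sequences from GRCm38.p6, the same build as mm10. Identities were computed with Biopython 1.88.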

Additional observations from a re-analysis of the deposited data

How the results depend on the processing

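The log2 difference of Mcpt8 moved by less than the spread between replicates under each alternative run (pseudocount of 5, trimmed mean rescaling, quantile normalisation, difference within replicate numbers), as did that of Mir6949, and leaving out 1 library gave -2.53 to -2.25 and -2.52 to -2.23. Members with all treated values below all untreated ones numbered 3 to 4 with 1 library left out, and neighbours past the study's thresholds numbered 1 each time. The number of genes at an adjusted p under 0.05 was less stable than the differences. It was 36, and 57 with a pseudocount of 5, 66 after quantile normalisation, 57 without the filter, 263 with the replicate number as a block, and 0 to 120 with 1 library left out. It was 1 without untreated replicate 1, 0 without untreated replicate 2 or 3, 17 and 6 without amisulpride replicates 1 and 2, and 120 without amisulpride replicate 3. The cause was not tested. Genes past the study's thresholds numbered 380 lower and 339 higher, 692 and 621 without the filter, in which more genes are tested, and 254 to 515 and 309 to 485 with 1 library left out.

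Over the 155 genes on the lists 72 were tested. At an adjusted p under 0.05 there were 0, and 2 with the block (Htra1 and Prss35). Without amisulpride replicate 3 there were 2 (Prg4 and Prss35), the range over left-out libraries being 0 to 2. Genes past the study's thresholds numbered 8 lower, 5 with a pseudocount of 5 and 3 to 7 with 1 library left out, and 2 higher, with 2 to 5. Prss35 and Cd53 passed in every alternative run, while Mitf, Ccl5, Camp, Csf1r, Srgn, Ctsc, Ndst2 and Htra1 missed them without at least 1 library. With the block 10 list genes were lower by the study's thresholds and 3 higher, the added ones being Ptprc, Lum and Serpina3n, and it changed no other call on the lists. The limma adjusted p with the block was 0.0613 for Ccl5, 0.0762 for Camp, 0.0898 for Cd53, 0.220 for Csf1r and 0.271 for Mitf. Of 197 further values 159 kept their call or moved by less than the spread, 29 lost the call and 9 moved. None of the 10 called list genes changed direction, but of 77 list medians under these alternatives 13 changed sign, those of the basophil, neutrophil, protease inhibitor, other serine protease and fibroblast lists, so no direction is read from them. The floor limits what can be said of Mcpt1, Mcpt4, Ctsg, Gzmb and Gzmf.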
